A study of Prunus sibirica with 6 samples.

Results

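Dof and GATA proteins are plant transcription factors that bind DNA through a single zinc finger each, and the clusters annotated to these families were described in flower buds of Siberian apricot (Prunus sibirica), in clone No. 1, which is male sterile, and clone No. 60, which is fertile. The members were the 43 transcript clusters that the deposited regulator table assigns to C2C2-Dof (25 clusters) or C2C2-GATA (18 clusters), of 1508 clusters in that table. The family annotation alone set which clusters are members, and no expression value entered that rule. Earlier results of these data were known when the families were chosen. The study sequenced RNA of 3 sterile bud samples of clone No. 1 and 3 fertile bud samples of clone No. 60, all labelled as microspore developmental stage. Each group is 1 clone, so sterility cannot be told apart from any other genetic difference between clone No. 1 and clone No. 60. The series' design text speaks of biological replicates but does not tie them to separate trees, and the p-values therefore measure the spread between these bud samples. Whole buds hold many tissues, and fewer cells of a type cannot be told apart from less RNA per cell.

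Dof factors recognise an AAAG core and GATA factors a GATA core in the promoters they bind. In Arabidopsis, cycling Dof factors (CDFs) delay flowering by repressing CONSTANS until the clock-controlled light pathway removes them, and other Dofs act in vascular tissue, cell growth, guard cells and seed germination. GATA factors form subfamilies A to D. B members such as GATA21 (GNC) promote chlorophyll formation in response to light and cytokinin, C members carry a CCT motif and a TIFY domain beside the zinc finger, and A members are less well described, GATA8 (BME3) being a promoter of seed germination.

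The count totals of the regulator table ran from 957196 to 1122298 in the sterile and from 1242099 to 1424835 in the fertile libraries. FPKM are fragments per kilobase of cluster, scaled to library size, and from them, the counts and the cluster lengths a whole-library total can be worked out. The regulators made up 5.89% to 5.91% of these implied totals in the sterile libraries and 5.34% to 5.64% in the fertile ones. All 43 members passed the low-count filter, with at least 90 counts over the 6 libraries. Fertile replicate 1 stood somewhat apart in the regulator counts, with a chi-square per degree of freedom of 12.3 and 11.5 against the other fertile libraries, where other pairs within a clone gave 1.57 to 1.77. Bud tissue markers among the regulators differed between the clones as well. The summed FPKM of 7 tapetum clusters was 199.9 to 208 in sterile and 80.6 to 84.9 in fertile buds, and BHLH10 alone averaged 135 ± 2.65 against 24.9 ± 0.870 FPKM. Without BHLH10 the other 6 summed to 67.1 to 69.7 against 56.7 to 59.6. Of the 5 tapetum clusters tested 3 were higher (BHLH10, MS1 and an AMS cluster) and 2 lower, a second AMS cluster (29.8 against 32.8 FPKM) and MYB35 (3.07 against 4.42 FPKM). The MS1 counts came to 170 over sterile buds, against 2 over fertile buds. The 8 carpel and ovule clusters summed to 109 to 113 against 71.7 to 76.7 FPKM, and without the carpel gene DL the other 7 summed to 39.1 to 42.9 against 39.0 to 40.5. Of 7 tested there, 3 (42.9%) were higher and 2 (28.6%) lower, HEC1 (6.44 against 10.4 FPKM) and an SPT cluster (12.55 against 13.04 FPKM). Over all tested regulators 28.0% were called higher and 28.9% lower, the background for these marker counts. The carpel and ovule share called lower was near it. The 2 clusters listed for floral organ identity summed to 121 to 138 against 144 to 154 FPKM, but they went opposite ways. AG1 was called higher (32.9 against 22.3 FPKM) and the more abundant PMADS2 lower (96.2 against 127 FPKM). The 2 vascular marker clusters summed to 20.6 to 23.2 against 19.5 to 23.2, with APL called higher and ATHB-8 lower. The green tissue marker GLK2 stood at 11.7 to 14.2 against 10.3 to 11.3. No listed marker cluster was at 0 in all libraries of a clone. The part of these tissue differences in the results below was not tested.

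Zinc finger annotation fitted the family labels for most members. A Dof domain was annotated in 24 of the 25 Dof clusters and a GATA zinc finger in 16 of the 18 GATA clusters. The exceptions were a DOF4.6 cluster (Cluster-6671.18093) and both GATA5 clusters, named here by their protein hits. Members are named after their closest Swiss-Prot protein, which was an Arabidopsis protein for 41 members, a rice protein for the GATA20 cluster and absent for Cluster-6345.0, whose Prunus hit is GATA23-like. Of the 35 members with a numbered Prunus hit, 12 carry another number there. The DOF5.3 cluster matches DOF2.4-like of Prunus mume, the DOF3.6 cluster DOF2.4, the DOF1.2 cluster DOF3.5, and the DOF3.2 cluster DOF5.7. A shared name does not show that a cluster is the ortholog of the Arabidopsis gene.

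In sterile buds more Dof clusters were higher than lower, and GATA clusters were more often lower. By edgeR's quasi-likelihood test with Benjamini-Hochberg adjustment at 0.05 over all 1380 tested regulators, 13 of 25 Dof clusters were higher in sterile buds, 6 were lower and 6 were not called. Of 18 GATA clusters 3 were higher, 8 lower and 7 not called. Together 16 of 43 were higher and 14 lower. Over all tested regulators 28.0% were called higher and 28.9% lower, 57.0% in all. The Dof share called higher (52.0%) lay above that background and the share called lower (24.0%) a little below it, whereas in the GATA family 16.7% were higher and 44.4% lower. The median log2 fold change, sterile over fertile, was 0.25 for the Dof and -0.15 for the GATA clusters, beside 0.01 for all tested regulators. These differences between the families and the background are descriptions and were not tested.

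The balance depended on the library scale for the GATA family. TMM scaling (trimmed mean of M-values) sets each call against the bulk of the regulators. Scaling by the implied whole-library totals raised the median of all tested regulators by 0.14 on the log2 scale, and then 62.6% of regulators were called, 41.1% higher and 21.5% lower. On that scale 15 Dof clusters were higher and 4 lower, and 5 GATA clusters were higher and 5 lower. The median of the GATA clusters became -0.01 and that of the Dof clusters 0.39, beside 0.15 for all regulators. With limma on log2(FPKM + 1) over all 21730 clusters tested, 14 Dof clusters were higher and 3 lower, and 4 GATA clusters were higher and 4 lower. Of all clusters in that fit 49.8% were called, 29.1% higher and 20.7% lower. In FPKM itself the sterile libraries lay wholly above the fertile ones for 18 Dof and 6 GATA clusters and wholly below them for 5 Dof and 5 GATA clusters. Over all tested regulators they lay wholly above for 46.2% and wholly below for 22.5%. No member called by TMM scaling changed direction under any of 15 alternatives, and 19 of the 30 called members, 12 Dof and 7 GATA, were called the same way in each of them.

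**Figure D1:**
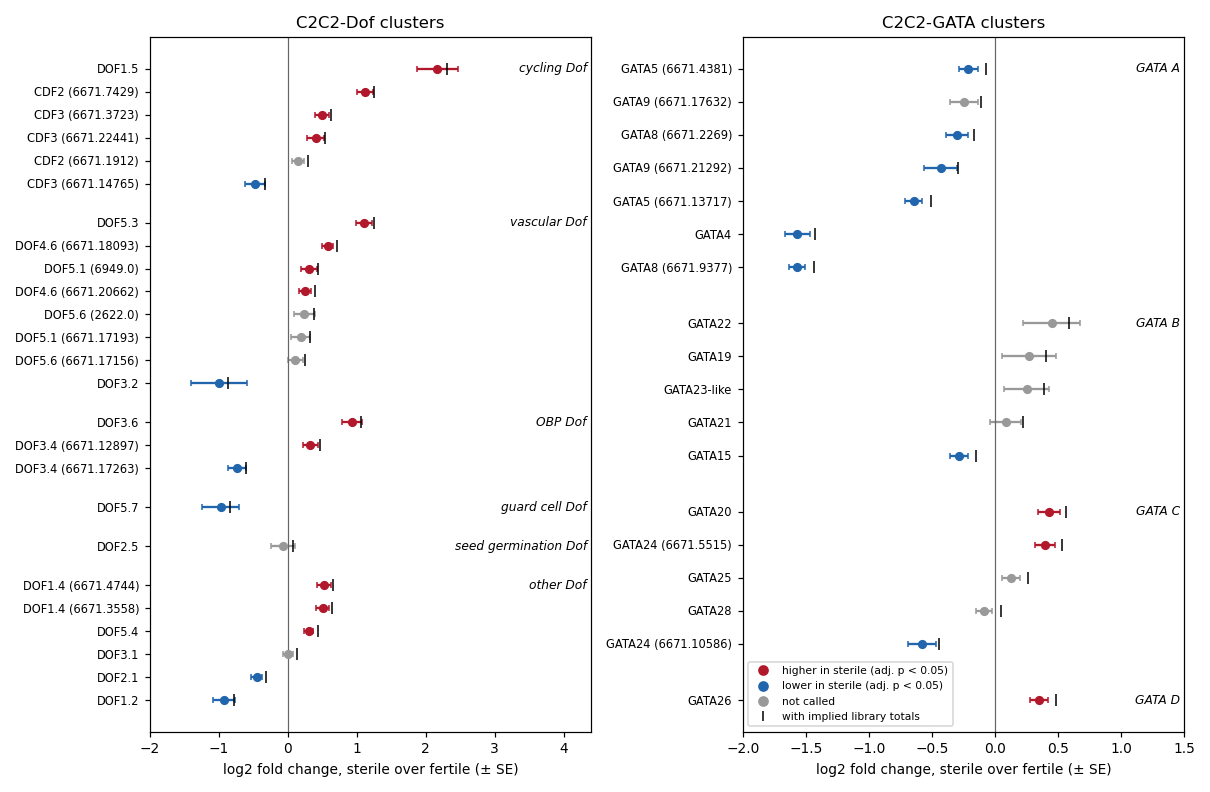
Log2 fold change of the 25 Dof (left) and 18 GATA (right) clusters, sterile over fertile, with its standard error from edgeR (3 libraries per clone), grouped by subgroup. Red points are called higher, blue ones lower and grey ones not called; the black tick is the value with implied whole-library totals. All 7 clusters of GATA subfamily A lie below 0, and DOF1.5 lies farthest to the right, at 2.17.

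GATA subfamily A stood lower in sterile buds. All 7 clusters had log2 fold changes below 0, from -1.57 to -0.21, where 48.2% of all tested regulators had a value below 0. Of the 7, 6 were called lower, beside 28.9% of all tested regulators. The sign was negative for all 7 in each of the 15 alternatives too. With the implied whole-library totals, however, only 4 were called lower, beside 21.5% of all tested regulators. In FPKM, 4 of the 7 had clones that did not overlap, all lower in sterile buds, beside 22.5% of all tested regulators. The summed FPKM of the subfamily was 177, 173 and 177 in the sterile libraries, against 304, 276 and 284 in the fertile ones. A large part of that gap lay in 1 GATA8 cluster (Cluster-6671.9377), which averaged 47.0 FPKM in sterile and 127 FPKM in fertile buds.

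GATA8 (Cluster-6671.9377, 3568 bases), a namesake of the Arabidopsis germination factor BME3, had the highest level of the members in fertile buds and the largest fall by edgeR. In sterile buds GATA25 and a GATA5 cluster stood above it. It had 44.8, 48.3 and 47.9 FPKM in sterile buds, against 131, 123 and 126 FPKM in fertile buds. Every sterile library lay far below every fertile one, and the sterile counts summed to 8180 against 29859. The log2 fold change was -1.57 ± 0.06 (SE), 2.98-fold lower, with an edgeR adjusted p of 8.74e-13. Among the 34377 clusters of the full FPKM table it ranked 2307th by its sterile mean and 694th by its fertile mean. It made up 12.1%, 13.3% and 13.1% of the summed GATA FPKM in the sterile libraries, against 27.8%, 27.6% and 28.7% in the fertile ones.

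GATA4 (Cluster-6671.3220) fell by about as much from a lower level. It stood at 8.97, 8.58 and 9.37 FPKM in sterile buds, against 26.2, 21.8 and 23.9 FPKM in fertile buds, again with no overlap. Its log2 fold change was -1.57 ± 0.10, 2.97-fold lower, with an edgeR adjusted p of 3.12e-10. GATA8 and GATA4 were the only Dof or GATA clusters called at least 2-fold lower, a class that held 7.68% of all tested regulators, and DOF1.5, CDF2 and DOF5.3 below were the 3 called at least 2-fold higher, beside 5.72% of regulators. Both kept their call in all 15 alternatives.

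The other subfamily A members fell less. GATA5 had a pair of clusters. The abundant one (Cluster-6671.4381) stood at 60.8, 58.1 and 62.4 FPKM in sterile buds, against 67.9, 61.6 and 59.4 FPKM in fertile buds. The clones overlapped in FPKM, and its call (-0.21 ± 0.07, edgeR adjusted p = 0.0196) was lost with 7 of the 15 alternatives. Among these were the implied totals (-0.07) and leaving out sterile replicate 1 (-0.19) or 2 (-0.21), and without fertile replicate 1 the value was -0.13. The other GATA5 cluster (Cluster-6671.13717) stood at 26.7, 24.0 and 23.5 FPKM in sterile buds, against 34.7, 34.4 and 35.4 FPKM in fertile buds. It fell by 0.64 ± 0.07 on the log2 scale and kept its call throughout. A GATA9 cluster (Cluster-6671.21292) fell by 0.43 ± 0.13, with clones that overlapped in FPKM. Its call was lost with limma (-0.24), and its value was -0.27 without fertile replicate 1. A second GATA8 cluster (Cluster-6671.2269, GATA11-like by its Prunus hit) fell by 0.30 ± 0.09, a call lost with the implied totals (-0.17) and with limma (-0.14). The second GATA9 cluster (Cluster-6671.17632), which matches GATA12 of Prunus mume, was at -0.25 ± 0.11 and was not called. It was called lower without sterile replicate 1 (-0.32) and without the low-count filter.

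The remaining GATA subfamilies did not share that direction. Of the 11 clusters outside subfamily A, 3 (27.3%) were called higher, 2 (18.2%) lower and 6 not called. The share called higher was near the 28.0% of all tested regulators, of which 28.9% were called lower. The median of the 11 was 0.25. Their summed FPKM was 192, 191 and 188 in the sterile libraries, against 167, 170 and 157 in the fertile ones. The ratio of subfamily A to the other GATA clusters within a library, which does not depend on library scale, was 0.922, 0.906 and 0.940 in sterile buds, against 1.82, 1.63 and 1.81 in fertile buds. The clones did not overlap. With 3 libraries against 3 an exact two-sided permutation test cannot give a p below 0.1, so none is given for such ratios. GATA8 (Cluster-6671.9377) weighs heavily in the subfamily A ratio. Without that cluster, the summed FPKM of the other 17 GATA clusters overlapped, at 315 to 325 in sterile and 314 to 340 in fertile buds.

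**Figure D2:**
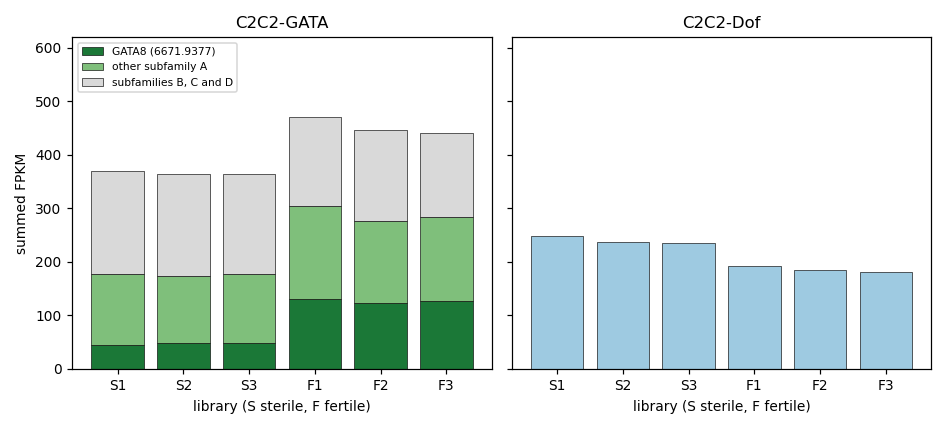
Summed FPKM of the GATA (left) and Dof (right) clusters in each library, S1 to S3 sterile and F1 to F3 fertile. The GATA bars are split into GATA8 (Cluster-6671.9377, dark green), the other subfamily A clusters (light green) and subfamilies B, C and D (grey). The dark green part is 44.8 to 48.3 FPKM in sterile and 123 to 131 in fertile buds, and the Dof bars are higher in sterile buds.

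Among the 5 B members, GATA15 (Cluster-6671.5203) was the only one called, and it was lower. Its FPKM averaged 29.5 ± 0.771 in sterile buds, against 32.3 ± 2.48 in fertile buds (SD over 3 libraries each, as in all means below), and the clones overlapped. It fell by 0.29 ± 0.07 on the log2 scale with edgeR adjusted p = 0.00348, and the call was lost with the implied totals (-0.15) and with limma (-0.13). The chlorophyll-promoting factors were not called. GATA21 (GNC) averaged 9.34 ± 1.39 FPKM in sterile buds, against 7.95 ± 0.871 FPKM in fertile buds, with a log2 fold change of 0.08 ± 0.12. GATA22, whose Arabidopsis namesake CGA1 is the close relative of GNC, stood at 2.70 ± 0.666 against 1.76 ± 0.245 FPKM, with 0.45 ± 0.23. The GATA22 libraries of the clones did not overlap in FPKM, and it was called higher with the implied totals (0.58) but under no other alternative. GATA19, a relative of the flower and boundary regulator HANABA TARANU (HAN), stood at 2.45 ± 0.359 against 1.83 ± 0.355 FPKM. The GATA23-like cluster stood at 4.02 ± 0.0551 against 3.01 ± 0.556 FPKM. Their log2 fold changes were 0.27 ± 0.21 and 0.25 ± 0.18.

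The C-type members split. The 3 clusters named GATA24 and GATA25 are also listed as Tify by the authors, and a CCT motif was annotated in 4 GATA clusters, the GATA20 cluster among them. That cluster takes its number from rice and was placed with subfamily C by its motif. GATA25 (ZIM in Arabidopsis, where overexpression lengthens hypocotyls) was the most abundant of the 5, at 62.5, 60.7 and 59.2 FPKM in sterile buds, against 53.0, 50.5 and 46.6 FPKM in fertile buds. All sterile libraries lay above the fertile ones in FPKM, yet by TMM scaling the change was 0.13 ± 0.07 and not called (edgeR adjusted p = 0.135). It was called with the implied totals (0.26), with limma (0.28) and without fertile replicate 1 (0.19). The rice-named GATA20 cluster rose by 0.43 ± 0.09, at 13.04 ± 0.405 against 8.74 ± 0.357 FPKM. GATA28 was not called, at 33.8 ± 0.864 against 32.3 ± 2.29 FPKM. The lone D member, GATA26, rose by 0.35 ± 0.07, at 19.8 ± 1.27 against 14.0 ± 0.5 FPKM.

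The pair of GATA24 clusters moved apart. One (Cluster-6671.5515) stood at 10.9, 12.4 and 11.3 FPKM in sterile buds, against 7.32, 8.01 and 8.46 FPKM in fertile buds. The other (Cluster-6671.10586) stood at 2.96, 3.75 and 3.55 FPKM in sterile buds, against 4.37, 4.78 and 4.75 FPKM in fertile buds. The first rose by 0.40 ± 0.08 and the second fell by 0.58 ± 0.11 on the log2 scale, with edgeR adjusted p of 0.000254 and 0.000233. Their ratio within a library was 3.38 ± 0.269 in the sterile libraries, against 1.71 ± 0.061 in the fertile ones, with no overlap.

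The summed FPKM of the 25 Dof clusters was 248, 238 and 236 in the sterile libraries, against 193, 184 and 181 in the fertile ones, with no overlap. The cycling type was set by a list of names. It held the CDF-named clusters and DOF1.5, which has no CDF name and was the member with the largest rise. Of 6 cycling Dof clusters 4 were higher, 1 was lower and 1 was not called, beside 28.0% higher and 28.9% lower over all regulators. The median of the 6 was 0.45 on the log2 scale. With the implied totals 5 were higher and 0 lower, where 41.1% of all tested regulators were higher and 21.5% lower. DOF1.5 (Cluster-1899.0, 669 bases), named COG1 in Arabidopsis, where it dampens phytochrome signalling, had the largest fold change of the members by edgeR. It stood at 8.81, 6.02 and 5.92 FPKM in sterile buds, against 1.76, 1.08 and 1.13 FPKM in fertile buds. Its counts were small, 140 in all sterile and 38 in all fertile libraries, but no sterile library came near a fertile one. The log2 fold change was 2.17 ± 0.29, 4.50-fold higher, with edgeR adjusted p = 6.46e-06.

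A CDF2 cluster (Cluster-6671.7429), CDF1 by its Prunus hit, also rose. It stood at 8.48, 9.33 and 7.70 FPKM in sterile buds, against 3.38, 3.16 and 4.09 FPKM in fertile buds. The clones did not overlap, and it rose by 1.12 ± 0.11 with edgeR adjusted p = 2.26e-07. The second CDF2 cluster (Cluster-6671.1912) was the more abundant one, at 14.3 ± 0.916 against 11.6 ± 0.921 FPKM, and was not called (0.15 ± 0.08), though it was with the implied totals (0.29), with limma (0.28) and without fertile replicate 1 (0.18). The ratio of the first to the second within a library was 0.596 ± 0.0615 in the sterile libraries, against 0.310 ± 0.0689 in the fertile ones, without overlap.

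The 3 CDF3 clusters did not move together. CDF3 in Arabidopsis acts in flowering time and in cold and drought responses. The most abundant cluster (Cluster-6671.3723) stood at 9.40, 10.6 and 10.1 FPKM in sterile buds, against 6.36, 5.92 and 7.03 FPKM in fertile buds. The next (Cluster-6671.22441) stood at 6.29, 6.55 and 6.32 FPKM, against 4.96, 4.34 and 3.74 FPKM in fertile buds. Both rose, by 0.50 ± 0.09 and 0.40 ± 0.12, the second losing its call without fertile replicate 3 (0.30). The third (Cluster-6671.14765) stood at 2.52, 2.0 and 2.13 FPKM in sterile buds, against 2.60, 2.84 and 2.86 FPKM in fertile buds. It fell by 0.47 ± 0.14 (edgeR adjusted p = 0.0101), a call lost with the implied totals (-0.33) and with limma (-0.23).

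**Figure D3:**
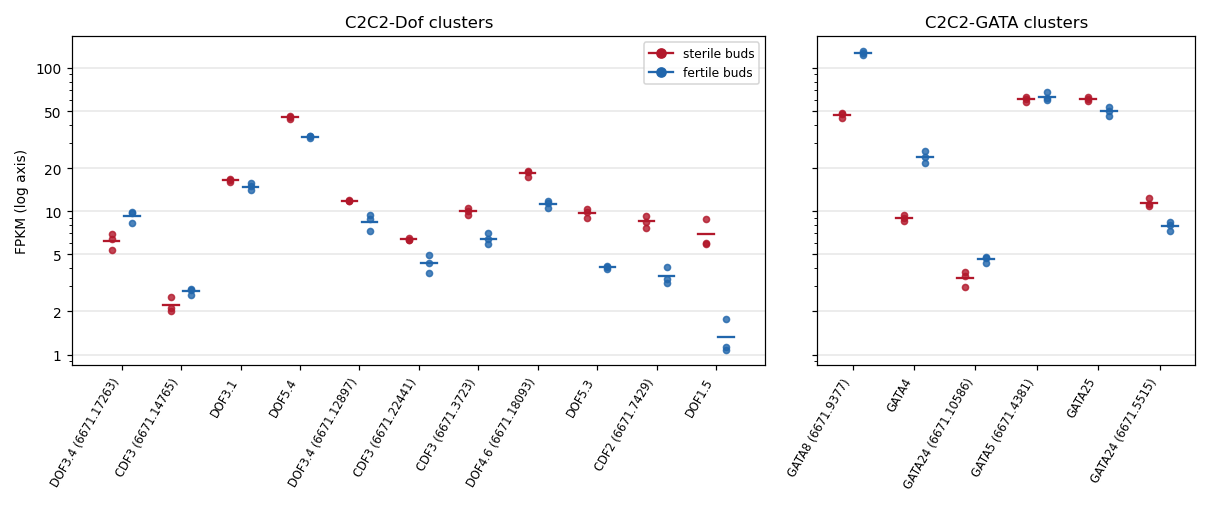
FPKM (log axis) of the 17 clusters described library by library, Dof on the left and GATA on the right, in order of their log2 fold change. Red points are the 3 sterile and blue points the 3 fertile libraries, and bars are means. DOF1.5, CDF2 (Cluster-6671.7429), DOF5.3, GATA8 (Cluster-6671.9377) and GATA4 have the widest gaps between clones.

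Clusters placed in the vascular type by a list of Dof names rose or were not called, apart from 1 short cluster. Other Dofs such as DOF2.1, which fell by 0.45 ± 0.08 on the log2 scale, were not on that list. Of the 8 vascular-type clusters, 4 were higher, 1 lower and 3 not called, beside 28.0% higher and 28.9% lower over all tested regulators. Their median was 0.25, beside 0.01 for all tested regulators. With the implied totals 5 were higher and 0 lower, where 41.1% of all tested regulators were higher and 21.5% lower. DOF5.3 (Cluster-6671.1892), whose Arabidopsis namesake TMO6 acts in early vascular tissue, stood at 10.4, 9.94 and 9.01 FPKM in sterile buds, against 4.12, 4.10 and 3.98 FPKM in fertile buds. Fertile libraries lay within a narrow range well below the sterile ones. It rose by 1.11 ± 0.11 on the log2 scale, 2.16-fold, with edgeR adjusted p = 2.73e-07. A DOF4.6 cluster (Cluster-6671.18093), whose namesake acts in vein development, stood at 17.4, 18.9 and 19.2 FPKM in sterile buds, against 10.46, 11.8 and 11.4 FPKM in fertile buds. It rose by 0.58 ± 0.07 (edgeR adjusted p = 3.65e-06). The second DOF4.6 cluster (Cluster-6671.20662) rose by 0.25 ± 0.09, a call lost with DESeq2 (0.24) and without sterile replicate 3 (0.20) or fertile replicate 3 (0.21), and the ratio of the first to the second was 1.90 ± 0.140 in the sterile libraries, against 1.52 ± 0.128 in the fertile ones, without overlap.

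The rest of the vascular type changed little. A DOF5.1 cluster (Cluster-6949.0) rose by 0.31 ± 0.12, a call lost under 6 alternatives, among them leaving out sterile replicate 1 (0.28) or 3 (0.27) and fertile replicate 2 (0.27) or 3 (0.29). The second DOF5.1 cluster (0.19 ± 0.14) and both DOF5.6 clusters (0.11 ± 0.11 and 0.24 ± 0.15), named for HCA2, a promoter of cambium formation in Arabidopsis, were not called. Of these DOF5.6 clusters, Cluster-2622.0 was called without sterile replicate 1 (0.380) and with the implied totals (0.377).

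The short DOF3.2 cluster (Cluster-6671.1613, 543 bases) and the DOF5.7 cluster (Cluster-6671.1614, 1385 bases) share their best Prunus mume locus, the only members to do so, and whether they belong to 1 gene was not tested. DOF5.7 (SCAP1) matures guard cells in Arabidopsis. The DOF3.2 cluster stood at 1.69, 1.04 and 2.75 FPKM in sterile buds, against 2.54, 2.96 and 4.27 FPKM in fertile buds, and the clones overlapped. The DOF5.7 cluster stood at 1.53, 1.38 and 0.76 FPKM in sterile buds, against 2.53, 2.19 and 1.63 FPKM in fertile buds, with no overlap. Both fell, by 1.00 ± 0.40 and 0.97 ± 0.27 on the log2 scale, with edgeR adjusted p of 0.0421 and 0.00541. They rest on 26 and 70 sterile counts, the DOF5.7 call was lost with limma, and the DOF3.2 call was lost under 10 alternatives, among them leaving out sterile replicate 1 (-0.90) or 2 (-0.75) and fertile replicate 2 (-1.07) or 3 (-0.79).

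OBP factors, growth regulators of Arabidopsis, split as well. DOF3.6 (OBP3; Cluster-8008.0) stood at 5.87 ± 1.05 against 2.76 ± 0.175 FPKM and rose by 0.93 ± 0.14 (edgeR adjusted p = 2.80e-05). The DOF3.4 pair, named for the cell-cycle factor OBP1, moved in opposite directions. Cluster-6671.12897 stood at 12.1, 11.8 and 11.8 FPKM in sterile buds, against 9.41, 8.77 and 7.27 FPKM in fertile buds. Cluster-6671.17263 stood at 6.38, 6.96 and 5.37 FPKM in sterile buds, against 9.83, 9.68 and 8.33 FPKM in fertile buds. The first rose by 0.33 ± 0.11 and lost that call with DESeq2 (0.32) and without sterile replicate 2 (0.30) or 3 (0.31) or fertile replicate 3 (0.22). The second fell by 0.74 ± 0.13 and kept its call throughout. Their ratio was 1.89, 1.69 and 2.19 in the sterile libraries, against 0.957, 0.906 and 0.873 in the fertile ones, so the more abundant cluster of the pair differed between the clones.

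DOF5.4 (OBP4; Cluster-6671.6770), which restrains cell growth in Arabidopsis, was the most abundant Dof. It stood at 46.3, 45.4 and 44.1 FPKM in sterile buds, against 33.3, 32.6 and 33.4 FPKM in fertile buds, and rose by 0.30 ± 0.06 (edgeR adjusted p = 0.000512). DOF3.1 (Cluster-6671.9529) stood at 16.5, 16.8 and 16.1 FPKM in sterile buds, against 15.6, 14.9 and 14.0 FPKM in fertile buds. The clones did not overlap in FPKM, but the fitted change was 0.0013 ± 0.07 and not called. Both DOF1.4 clusters rose, by 0.52 ± 0.10 and 0.51 ± 0.10, with a ratio to each other of 0.968 ± 0.0462 in sterile and 0.954 ± 0.0796 in fertile buds. DOF1.2 fell by 0.92 ± 0.16 and DOF2.1 by 0.45 ± 0.08. DOF2.5 (DAG2, a promoter of germination in Arabidopsis) was not called, at 2.39 ± 0.352 against 2.26 ± 0.390 FPKM.

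In all, 11 Swiss-Prot names were carried by more than 1 cluster, 23 clusters together. Of the 13 pairs within a name, 8 had within-library FPKM ratios that did not overlap between the clones. Over all 628 pairs of tested regulators that share a name, and have FPKM above 0 in every library, 62.6% did not overlap, a share near that of the Dof and GATA pairs. One name gave 190 of those 628 pairs. RSEM, named in the submitters' processing notes, divides reads that match several clusters, so reads may have been shared within such pairs, and neither this nor the separate assembly of allelic transcripts was tested.

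**Figure D4:**
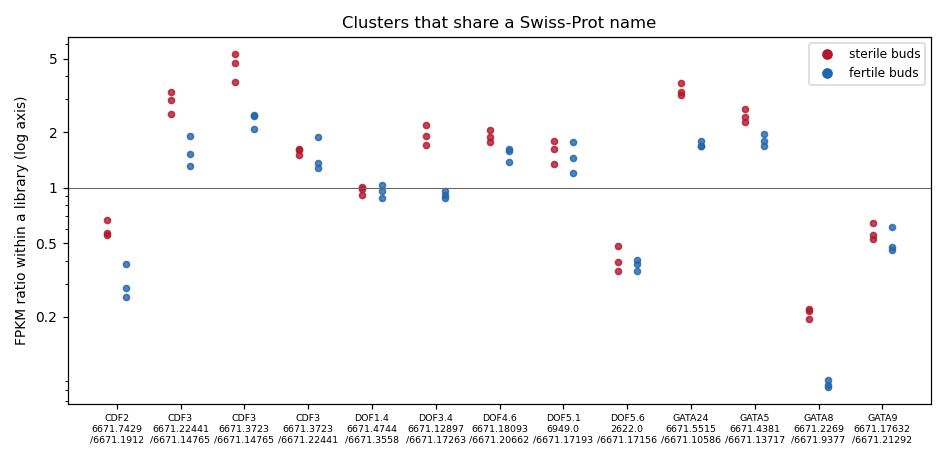
Within-library FPKM ratio (log axis) of the 13 pairs of clusters that share a Swiss-Prot name, the cluster with the higher log2 fold change over the other, in 3 sterile (red) and 3 fertile (blue) libraries. The line marks a ratio of 1; the DOF3.4 ratio lies above it in the sterile libraries (1.69 to 2.19) and below it in the fertile ones (0.873 to 0.957).

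Regulators of processes linked to these factors were compared by lists chosen by gene name. Of 19 clusters of clock and photoperiod genes around the cycling Dofs, 10 were higher, 3 were lower and 6 were not called, and the median was 0.27 beside 0.01 for all tested regulators. The shares over all tested regulators, against which this and the following 3 lists are set, were 28.0% higher, 28.9% lower and 57.0% called. The clock repressor APRR5 (Cluster-6671.19223) stood at 24.8 ± 0.633 against 11.8 ± 0.712 FPKM and rose by 0.93 ± 0.06, while APRR1 (TOC1) fell by 0.58 ± 0.07. The CONSTANS-like genes did not all move together. COL6 rose by 0.99 ± 0.10, and COL1 fell by 1.09 ± 0.38, on only 28 sterile and 74 fertile counts. CONSTANS itself was not among the matched names. Of 9 clusters of greening genes listed around the B-type GATAs 4 were higher, 2 lower and 3 not called. The GAI clusters were called in opposite directions, at 0.46 ± 0.06 and -0.48 ± 0.07. HY5, which promotes greening in light, rose by 0.43 ± 0.08, the cytokinin response regulator ARR2 fell by 0.60 ± 0.07, and GLK2 was not called (0.11 ± 0.09).

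Of 12 clusters of vascular regulators 3 (25.0%) were higher, near the 28.0% of all regulators, 1 was lower and 8 were not called. Their median was 0.00. BHLH30 gave more than 1 of these clusters. The phloem factor APL rose by 0.41 ± 0.10 and ATHB-8, a vascular HD-ZIP III factor, fell by 0.41 ± 0.08, while REVOLUTA was at 0.01 ± 0.07. Of 8 clusters of organ boundary and meristem genes, the setting in which HAN acts, 6 were higher, 0 lower and 2 not called. Their median was 0.42. LOB and KNAT6 each gave more than 1 of these clusters, all called higher. The CUP-SHAPED COTYLEDON genes NAC098 and NAC031 rose by 0.47 ± 0.09 and 0.52 ± 0.15, and the meristem genes STM (-0.18 ± 0.12) and WUS (-0.15 ± 0.14) were not called. With the implied totals the medians of these 4 lists were 0.41, 0.25, 0.14 and 0.55, beside 0.15 for all regulators.

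The authors' deposited table flags 4 members as up in sterile buds (DOF1.5, CDF2 Cluster-6671.7429, DOF5.3 and DOF3.6) and 2 as down (GATA8 Cluster-6671.9377 and GATA4), and leaves 37 unflagged. In the authors' deposited table the log2 fold change is 2.26 for DOF1.5 and -1.50 for both GATA8 (Cluster-6671.9377) and GATA4. Its flags hold no cluster with an absolute log2 fold change under 1.00, and 22 members have a q-value under 0.05 there.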

How the data were processed

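RNA-seq of flower buds was analysed, 3 sterile and 3 fertile libraries, grouped by the sample labels. The submitters' processing notes list RSEM, Bowtie2 and CASAVA, with neither versions nor roles. How reads were filtered and assembled, and how the authors tested fold changes, is not given in the sources used here. Estimated counts per cluster were deposited by the authors for regulators only, in 1625 entries for 1508 clusters. The 114 repeated clusters had identical values and were used once. Also deposited by the authors, per the file headers, were FPKM (for these and, in another table, 34377 clusters), cluster lengths, and the q-value and log2 fold change of their own comparison. Sequences and genome positions were not used here.

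After rounding, counts went into edgeR 4.0.16 under R 4.3.3. Its filterByExpr step removed 128 clusters, libraries were scaled by TMM, and robust quasi-likelihood fits (glmQLFit, glmQLFTest) were adjusted by Benjamini-Hochberg over 1380 clusters at 0.05. Each standard error is the absolute fold change over the root of F. The biological coefficient of variation was 6.82%. Implied library totals are the slope of a robust line through count/FPKM against length. Alternatives were 3 other library scales, DESeq2 1.42.0, no low-count filter, a replicate block, leaving out each library, and limma 3.58.1 on log2(FPKM + 1) or log2(FPKM + 0.1) of all clusters with FPKM of at least 1 in 3 libraries, or of all without that filter. On this log2 scale changes of low clusters are understated. The scripts were tested on simulated data. For the regulator table (1380 clusters, 200 of them changed) the share found by edgeR was 84.2% at a log2 change of 0.5, 95.8% at 1 and 100% at 2, with 2.08% false among its calls. For the table of 21730 clusters, again with 200 changed, limma found 39.2%, 66.7% and 91.0% at these sizes, with 4.48% false. In both simulations a far smaller share of clusters was changed than the real fits called (57.0% by edgeR, 49.8% by limma). The rates in the real fits may therefore differ from these.

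The members and lists were chosen with earlier results of these data known. Values per library are given for members called with an absolute log2 fold change of at least 1, the 3 most abundant of each family, and same-named members called in opposite directions. A criterion for members near absent from 1 clone (10 counts or fewer against 30 or more) matched no member. The DOF3.2, DOF5.7 and second GATA5 clusters were added to these after their values were seen, and GATA20 and the GATA23-like cluster were placed in their subfamilies then too. Lists were matched by exact Swiss-Prot gene name. A potato STK hit, which names another gene, was left out.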

Additional observations from a re-analysis of the deposited data

How the results depend on the processing

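The count of Dof clusters called higher stayed within 1.5 times its value of 13 in all 15 alternatives (9 to 15). That of Dof clusters called lower (6) moved to 3 with limma at either pseudocount and without the FPKM filter. GATA clusters called higher (3) became 5 and those called lower (8) became 5 with the implied whole-library totals, and with limma at either pseudocount or without its filter 4 were lower. Leaving out 1 library at a time gave 9 to 14 Dof clusters higher, 5 to 6 lower, 3 to 4 GATA clusters higher and 7 to 8 lower. Without fertile replicate 1, the library that stood apart, the counts were 14, 6, 4 and 8. The cause of these shifts was not tested. Of 645 values of single members, 562 kept their direction and side of the threshold, 49 lost and 15 gained a call, and 19 turned sign, all in members not called. DOF3.1 turned to -0.0049 with DESeq2 size factors, -0.0064 with DESeq2, -0.0288 without the low-count filter and -0.0493 to 0.058 with a library left out. DOF2.5 turned to 0.0697 with the implied totals, 0.0578 with limma with or without its filter, 0.08 at a pseudocount of 0.1, and ranged from -0.15 to 0.0642 with a library left out. GATA28 turned to 0.048 with the implied totals, 0.066 with limma with or without its filter and 0.0679 at a pseudocount of 0.1, while GATA21 ranged from -0.0103 to 0.22 with a library left out.

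The replicate numbers did not pair the samples: deviations from the clone means of same-numbered libraries correlated at 0.0227, 0.0224 and 0.0132. With the replicate block the counts were 13, 6, 3 and 8, as without it, and no member's call changed. Depth limits the lowest members, of which DOF3.2 had 26 counts in the sterile libraries together.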
